A study of Caenorhabditis elegans with 24 samples.

Results

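Transcript levels of the 6 vitellogenin genes of Caenorhabditis elegans, vit-1 to vit-6, were followed across fed and starved animals of 4 strains. The genes were taken by name from a table of 43800 gene entries, and all 6 passed the filter on low counts. RNA came from whole hermaphrodites that had been synchronized as L1 larvae and grown to mid-L4, the last larval stage, on OP50 bacteria. The strains were wild type N2, efk-1(ok3609), which carries an allele of the kinase of translation elongation factor 2, zip-2(tm4248), an allele of a bZIP transcription factor, and cep-1(gk138), an allele of the worm p53 homolog. They are written N2, efk1, zip2 and cep1 here. Fed animals were frozen directly at mid-L4, whereas starved animals were first washed 5 times in M9 buffer and left for 8 h on plates without food. Starved animals were therefore also 8 h older, and lack of food, washing and age cannot be told apart in any strain. Each of the 8 combinations had 3 libraries, 24 in all, and the labels do not say whether the 3 came from separate cultures, so the tests measure the spread between libraries, which may be technical.

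Vitellogenins are the precursors of yolk protein. In hermaphrodites they are made in the intestine, secreted into the body cavity and taken up by growing oocytes through the receptor RME-2, a member of the low-density lipoprotein receptor family. Their transcription is known to start around the passage from L4 larva to adult, and they become some of the most abundant transcripts of the adult.

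In the Ensembl annotation of build WBcel235, 5 of the 6 genes lay on chromosome X. vit-1 (WBGene00006925) spanned positions 7727889 to 7733168 on the plus strand and vit-2 (WBGene00006926) 5101042 to 5106169 on the plus strand. vit-3 (WBGene00006927, 3567355 to 3572549) and vit-4 (WBGene00006928, 3558769 to 3563965) were neighbours on the minus strand with 3389 bases between them. vit-5 (WBGene00006929) lay on the plus strand at 3403471 to 3408603, 150165 bases from vit-4. vit-6 (WBGene00006930) stood apart on chromosome IV, at 8261157 to 8266459 on the plus strand, and is known to encode a precursor that is cut into smaller yolk proteins. The predicted products were alike in length: 1603 residues for each of vit-3, vit-4 and vit-5, 1613 for vit-2, 1616 for vit-1 and 1651 for vit-6. The X-linked genes are similar in sequence and may share reads. Their deposited estimated counts had fractional parts in all 24 libraries, as estimates of shared reads do, whereas those of vit-6 were whole, within 1e-06, in 14 of 24. Values of single X-linked members therefore carry an uncertainty from the division of reads that the replicate spread does not include.

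Library totals ran from 14622266 to 30266282 counts. The 6 genes together held 1.12% ± 0.43 (SD, n = 3) of all counts in fed N2 and 3.54% ± 0.37 in starved N2, and the highest share, 7.64%, was that of a starved cep1 library. The lowest count of any member in any library was 580, for vit-1, so counting error was small beside the spread between libraries. The level of efk-1 itself was 23.8% of N2 in fed and 13.6% in starved efk1. In zip2, zip-2 stood at 57.0% and 69.9% of N2 without a call, and cep-1 at 126% and 86.6% in the libraries labelled cep1, so transcript level does not check those 2 labels, and cep1 and zip2 stand below for the libraries labelled so. Genes known from males were near the limit of detection (4 of 5 listed symbols in the table, summed level from 0.873 to 5.75 CPM over the 24 libraries), as were 8 early-embryo genes (0.405 to 6.36 CPM). CPM is the count of a gene relative to the scaled total of its library.

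Averaged over the strains, the family split into a pair of triplets after 8 h without food: vit-2, vit-5 and vit-6 were higher, and vit-1, vit-3 and vit-4 were lower. The values differed between strains, but edgeR called no member for a starvation change in a mutant that differed from that in N2. On the log2 scale vit-1, vit-3 and vit-4 changed by 0.34, -0.0002 and 0.43 in efk1, where none was called. In cep1 they changed by -5.42, -3.59 and -4.95, and no rise was called there. This grouping was made after the values were seen. In the mean over the 4 strains all 6 genes passed the test. For comparison, 63.5% of the 15871 genes tested were called in that comparison, 32.7% higher and 30.8% lower, so the count alone does not set the family apart. The log2 fold changes were 2.16 ± 0.28 (SE) for vit-2, 2.37 ± 0.34 for vit-5 and 1.89 ± 0.26 for vit-6, with edgeR adjusted p of 1.04e-06, 3.97e-06 and 3.02e-06. They were -2.26 ± 0.31 for vit-1, -1.47 ± 0.35 for vit-3 and -2.05 ± 0.36 for vit-4, with edgeR adjusted p of 2.83e-06, 0.00107 and 4.90e-05. The median over all genes tested was 0.03. All 6 calls in this mean held when any library was left out, beside 60.2% to 63.8% of all genes called in those fits. No whole strain was left out, so these fits do not show that the split holds in each strain. Within single strains vit-3 was called in cep1 only. RNA of whole animals was measured, so fewer cells of a type and less RNA per cell cannot be told apart.

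**Figure D1:**
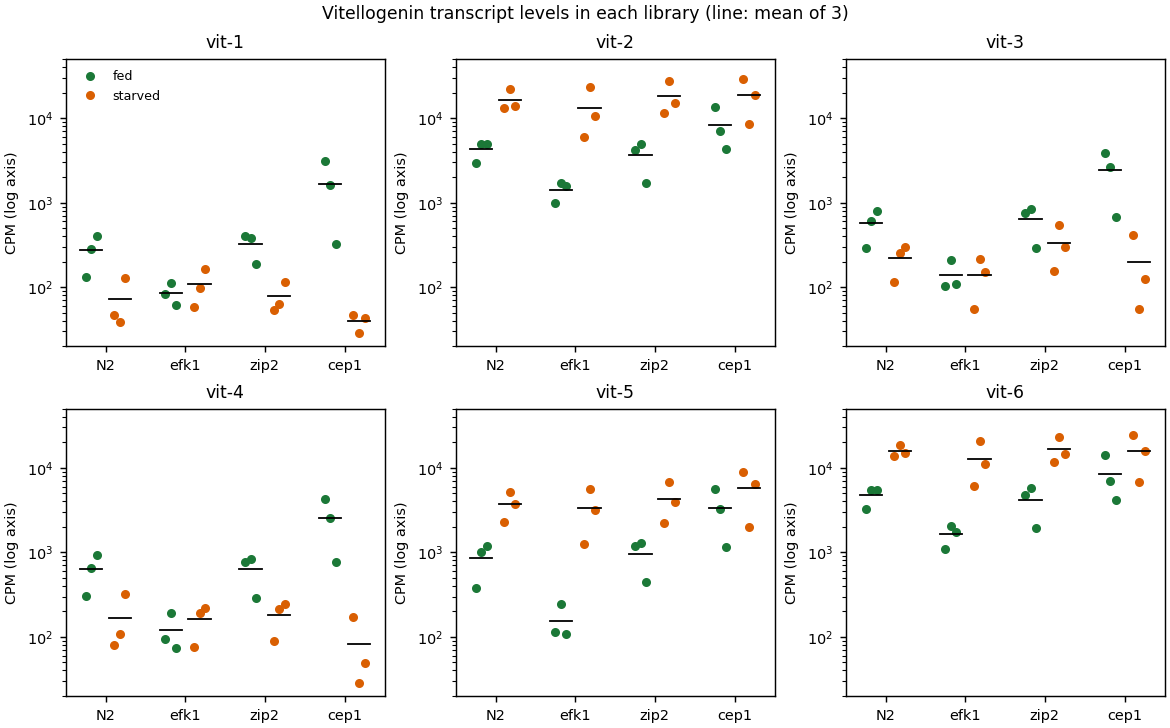
CPM of each vitellogenin (vertical log axis) in every library, by strain and food. Points are libraries (green fed, orange starved) and lines are means of 3. In N2, efk1 and zip2 the starved libraries lie above the fed ones for vit-2, vit-5 and vit-6, and fed cep1 libraries reach 3101 CPM for vit-1.

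In N2, vit-2 stood at 2982, 4951 and 4935 CPM in the fed libraries and at 13192, 22160 and 13783 in the starved ones. Every starved library lay above every fed library. The change was 1.93 ± 0.55 on the log2 scale, or 3.82-fold (edgeR adjusted p = 0.0112). vit-6, at 3272, 5526 and 5439 CPM fed, reached 13722, 18414 and 14845 starved, again without overlap (log2 fold change 1.72 ± 0.52, edgeR adjusted p = 0.0162). vit-5 went from 381, 1002 and 1196 CPM to 2301, 5221 and 3714, also without overlap (2.12 ± 0.67, edgeR adjusted p = 0.0196). Over all genes tested, 27% were likewise higher in every starved than in any fed N2 library and 24.1% lower in every one.

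The other triplet moved the other way in N2. vit-1 was at 131, 281 and 409 CPM in fed and 47.3, 39.2 and 130 in starved libraries, so that the highest starved library came just under the lowest fed library. It fell by 1.92 ± 0.62 on the log2 scale (edgeR adjusted p = 0.0220). vit-4 fell from 302, 652 and 937 CPM to 80.6, 107 and 320, with an overlap of 1 library on each side (-1.90 ± 0.72, edgeR adjusted p = 0.0472). vit-3 measured 295, 613 and 799 CPM fed and 115, 252 and 301 starved, and its difference of -1.35 ± 0.70 did not pass (edgeR adjusted p = 0.141). Thus 5 of 6 members were called in N2, 3 higher and 2 lower, beside 32.3% of all genes (15.9% higher and 16.4% lower). These calls rested on few libraries. Without the starved replicate 2 none was called, and 2 were called without fed replicate 1, 3 without fed replicate 3 and 3 without starved replicate 1, while the log2 fold changes kept their signs. The share of all genes called fell as well, from 32.3% to 19%, 20.9%, 24.1% and 23.8% in these fits, in that order. The call of vit-4 was also lost without fed replicate 2 and without the expression filter (edgeR adjusted p = 0.0898), and vit-3 was called in a fit of the N2 groups alone (edgeR adjusted p = 0.0480).

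**Figure D2:**
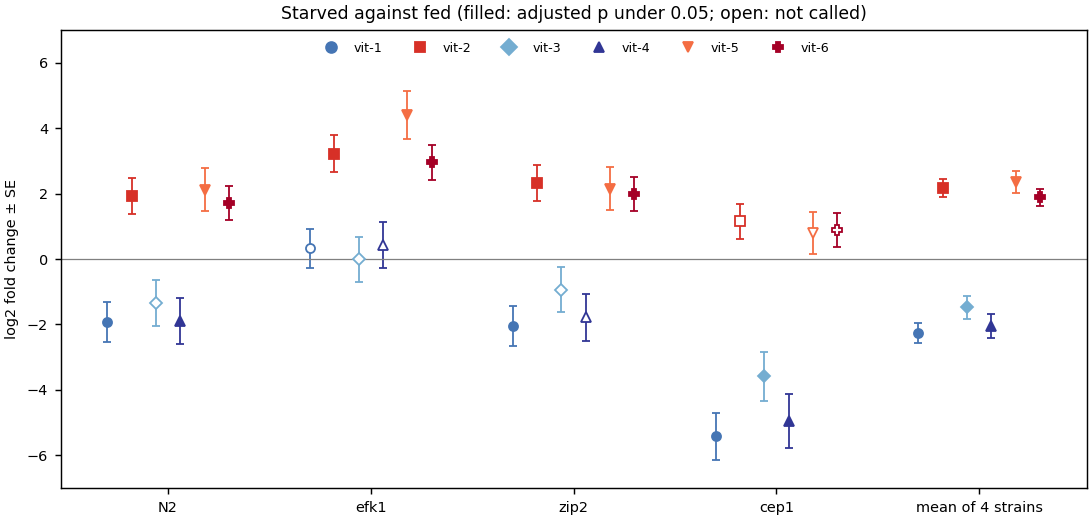
Log2 fold change of starved against fed (vertical axis, bars are SE) for the 6 vitellogenins in each strain and in the mean of the 4 strains. Filled symbols were called at an adjusted p under 0.05. vit-2, vit-5 and vit-6 lie above 0 in every strain, while vit-1, vit-3 and vit-4 lie near 0 in efk1 and at -5.42 to -3.59 in cep1.

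In efk1 the first triplet rose and the second did not pass the test. vit-5 stood at 115, 245 and 107 CPM in fed and 1238, 5624 and 3126 in starved efk1, without overlap although the starved libraries differed among themselves by 4.54-fold. Its log2 fold change of 4.42 ± 0.74, or 21.4-fold, was the largest rise of any member in any strain (edgeR adjusted p = 0.000179). vit-2 rose from 996, 1721 and 1561 to 5934, 23546 and 10582 CPM (3.23 ± 0.58, edgeR adjusted p = 0.000355), and vit-6 rose by 2.96 ± 0.55 (edgeR adjusted p = 0.000500). Over all genes 28% were higher and 23.7% lower without overlap. vit-1, vit-3 and vit-4 overlapped between fed and starved efk1, with log2 fold changes of 0.34 ± 0.60, 0.00 ± 0.69 and 0.43 ± 0.70. So 3 of 6 members were called, all higher, beside 25.4% of all genes (13.7% higher and 11.6% lower). Whichever library was left out, 3 were called, beside 14.4% to 25.3% of all genes. The sign of vit-1 turned without starved replicate 3, and that of vit-3 without fed replicate 2 or starved replicate 1.

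In zip2, vit-2, vit-5 and vit-6 rose and vit-1 fell. vit-2 was at 4164, 5010 and 1696 CPM fed and 11559, 27670 and 15144 starved, without overlap. It rose by 2.32 ± 0.55 (edgeR adjusted p = 0.00367), vit-5 by 2.15 ± 0.67 (0.0173) and vit-6 3.99-fold (0.00694). vit-1 fell from 399, 382 and 189 to 53.4, 63.9 and 117 CPM, without overlap (-2.05 ± 0.62, edgeR adjusted p = 0.0151). vit-4 was lower in every starved library (89.3 to 246 CPM) than in any fed library (286 to 827 CPM), yet its change of -1.78 ± 0.71 missed the threshold (edgeR adjusted p = 0.0577). It was called by DESeq2 (adjusted p = 0.0268) and without fed replicate 3, where vit-5 in turn was not (edgeR adjusted p = 0.0860). vit-3 overlapped (-0.94 ± 0.69, edgeR adjusted p = 0.306). Without overlap, 23.2% of all genes were higher and 26% lower. The 4 calls, beside 34.4% of all genes (17.6% higher and 16.8% lower), became 3 without starved replicate 1 and 2 without starved replicate 2. In those fits 29.3% and 20% of all genes were called.

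In the libraries labelled cep1 the falls were called and the rises were not. vit-1 stood at 3101, 1636 and 326 CPM in fed and at 46.7, 28.7 and 43.1 in starved libraries, a difference of -5.42 ± 0.72 or 42.7-fold (edgeR adjusted p = 1.28e-05). vit-4 went from 4316, 2580 and 767 CPM to 170, 28.1 and 49.3 (-4.95 ± 0.82, edgeR adjusted p = 0.000144), and vit-3 from 3924, 2621 and 673 to 420, 54.9 and 124 (-3.59 ± 0.76, edgeR adjusted p = 0.00144). The fed and starved libraries did not overlap for any of these. vit-2 overlapped, at 13719, 7085 and 4261 CPM fed and 28718, 8563 and 18803 starved (1.16 ± 0.54, edgeR adjusted p = 0.105). vit-5 and vit-6 overlapped too, with log2 fold changes of 0.79 ± 0.64 and 0.89 ± 0.51. The 3 calls, all lower, stood beside 28.4% of all genes (12.3% higher and 16.1% lower), and 16.4% of all genes were higher and 20.2% lower without overlap. vit-2 was called as well without fed replicate 1 (edgeR adjusted p = 0.0402) or without starved replicate 2 (edgeR adjusted p = 0.0445).

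Because the genes may share reads, the make-up of each set of similar genes was also followed. Of the summed CPM of vit-3, vit-4 and vit-5, vit-5 made up 36.6% to 44.2% in the 12 fed libraries of all strains and 85.7% to 97.3% in the 12 starved ones. The fed value differed by a few points between strains whose summed levels lay far apart: vit-5 held 37.1% ± 0.63 (SD, n = 3) of 417 CPM in fed efk1 and 40.9% ± 3.03 of 8268 CPM in fed cep1. vit-1 made up 3.84% to 18.8% of vit-1 plus vit-2 when fed and 0.162% to 1.55% when starved, also without overlap in any strain. The sum of vit-3, vit-4 and vit-5 changed by 1.07 on the log2 scale with starvation in N2, 2.98 in efk1, 1.11 in zip2 and -0.40 in cep1, and that of vit-1 plus vit-2 by 1.85, 2.96, 2.24 and 0.93. How the reads of similar genes were divided could not be examined in the table.

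**Figure D3:**
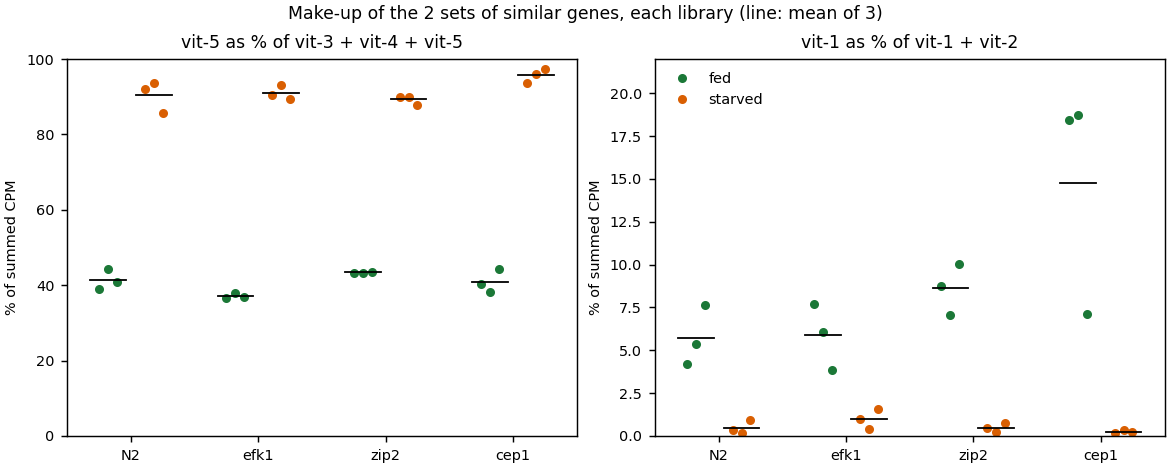
Left, vit-5 as a percentage of the summed CPM of vit-3, vit-4 and vit-5. Right, vit-1 as a percentage of vit-1 plus vit-2. Points are libraries and lines are means of 3. On the left every fed library lies at 36.6 to 44.2% and every starved library at 85.7 to 97.3%.

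Compared per kilobase of exon, vit-6 and vit-2 were the most abundant members in every group. In fed N2 they measured 937 ± 252 and 869 ± 229 CPM per kb (SD, n = 3), ahead of vit-5 at 177 ± 87.4, vit-4 at 128 ± 64.5, vit-3 at 116 ± 51.8 and vit-1 at 53.8 ± 27.4. Starved N2 had 3319 ± 1017 CPM per kb of vit-2, 3092 ± 484 of vit-6 and 769 ± 300 of vit-5. The other members then stood far lower, at 45.2 ± 19.5 for vit-3, 34.3 ± 26.5 for vit-4 and 14.2 ± 9.89 for vit-1. The CPM of vit-2 relative to vit-6 lay between 0.836 and 1.27 in all 24 libraries, while vit-6 itself ranged over the libraries from 1088 to 24345 CPM. Within each strain this ratio was higher in every starved than in any fed library. In N2 it was 0.896 to 0.911 fed and 0.928 to 1.20 starved, and in cep1 0.961 to 1.02 fed and 1.18 to 1.27 starved.

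Across the 24 libraries, which share groups and scaling, log2 levels of vit-2 and vit-6 correlated with Pearson's r of 0.996 and Spearman's rho of 0.997, and vit-2 and vit-5 with r of 0.964. Within the other triplet r was 0.960 for vit-1 and vit-4, 0.950 for vit-3 and vit-4 and 0.873 for vit-1 and vit-3. Between triplets it ranged from -0.18 for vit-1 and vit-2 to 0.26 for vit-3 and vit-5. After subtraction of the group means every pair correlated positively, from 0.53 for vit-1 and vit-2 to 0.99 for vit-2 and vit-6. Single libraries went against this: in starved N2, replicate 2 had the highest vit-2 and the lowest vit-1. These values describe the libraries and carry no test.

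**Figure D4:**
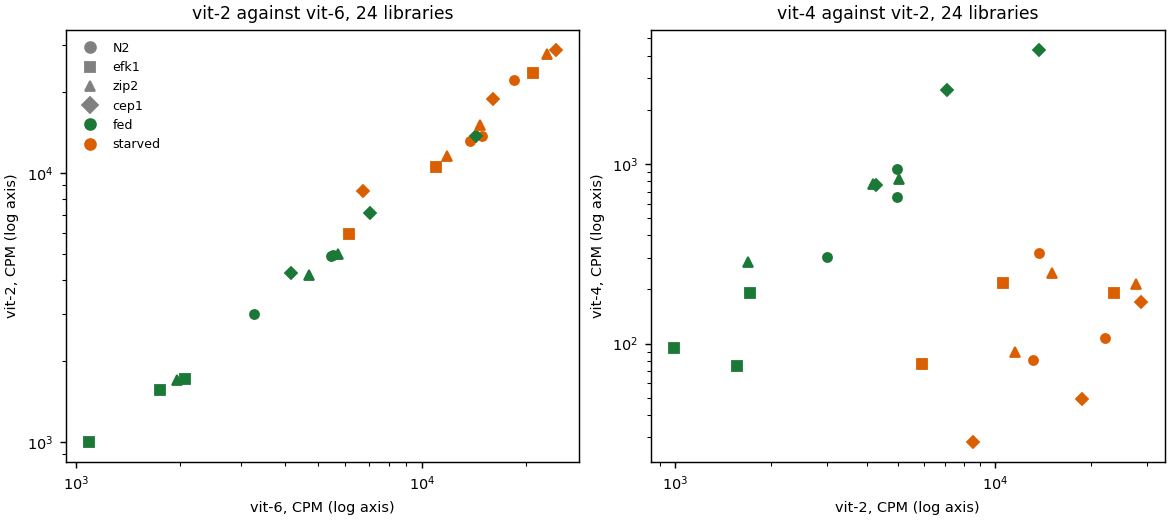
Levels of pairs of vitellogenins in the 24 libraries, in CPM on log axes (green fed, orange starved; symbol shape gives the strain). Left, vit-2 against vit-6 lie along a single line, with a ratio between 0.836 and 1.27. Right, vit-4 against vit-2 form a fed and a starved cloud, with more vit-2 for a given level of vit-4 in starved libraries.

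Fed efk1 animals had the lowest mean level of vit-2, vit-5 and vit-6 of the 8 groups. vit-5 measured 115, 245 and 107 CPM, all under the lowest fed N2 library, 381 CPM. The log2 difference was -2.47 ± 0.68, or 5.52-fold lower (edgeR adjusted p = 0.0807). For vit-2, fed efk1 at 996, 1721 and 1561 CPM also lay wholly under fed N2 (-1.59 ± 0.54, edgeR adjusted p = 0.259). The same held for the other members: each of the 6 was lower in every fed efk1 library than in any fed N2 library, whereas 12.8% of all genes were. The 6 are not independent observations: the X-linked members may share reads, and all 6 varied together within groups (r from 0.53 to 0.99). Their differences ran from -1.54 ± 0.52 for vit-6 to that of vit-5, with a median of -1.84 against 0.01 over all genes.

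None of the 6 was called in fed efk1 against fed N2 by edgeR over all groups, where 1.51% of all genes were called, although each had an unadjusted p under 0.05. The outcome depended on the fit: DESeq2 called vit-4 and vit-5, beside 2.06% of all genes, and edgeR on the fed N2 and efk1 libraries alone called 5, all but vit-1, beside 2.66%. Without fed N2 replicate 1, the N2 library with the lowest levels, vit-5 was called (edgeR adjusted p = 0.0456), beside 1.5% of all genes. Each difference was negative in all these fits. In the same comparison the 12 oocyte genes had a median log2 difference of -0.76, the 8 cuticle and molting genes one of 1.04 and col-19, a collagen of the adult cuticle, one of -1.26 ± 0.39, with none of these genes called. The summed oocyte level was 1834 to 2393 CPM in fed efk1 and 3222 to 3691 CPM in fed N2, and 2317 to 2547 and 2826 to 3079 CPM for the cuticle and molting list. Their part in the vitellogenin difference was not tested.

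Fed cep1 libraries had the highest mean levels of vit-1, vit-3 and vit-4 of the 8 groups. vit-1 was called higher than in fed N2 (2.62 ± 0.63, edgeR adjusted p = 0.0231), beside 4.89% of all genes called and 2.36% called higher, although the lowest fed cep1 library, at 326 CPM, lay under the highest fed N2 library, at 409 CPM. vit-3, vit-4 and vit-5 differed by 2.08 ± 0.72, 2.02 ± 0.72 and 1.94 ± 0.66 without passing (edgeR adjusted p from 0.0814 to 0.0929), and vit-2 and vit-6 by 0.96 ± 0.53 and 0.84 ± 0.51. The 3 fed cep1 libraries stood far apart, with 9.52-fold between the highest and lowest for vit-1 and 3.22-fold for vit-2, and replicate 3 was the lowest of them for each member. Without it 4 members were called, beside 13.2% of all genes, and DESeq2 called 4 beside 10.5%. None was called without fed cep1 replicate 1 or 2, without fed N2 replicate 1 or 2, or in a fit of these groups alone, where 1.06% to 2.8% of all genes were. In this comparison 1 of 12 oocyte genes, chs-1, was higher, 1 of 8 cuticle and molting genes, col-7, was lower and rict-1 of the regulator list was higher. The summed oocyte level spanned 2459 to 7780 CPM in fed cep1, and its part in the result was not tested.

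In fed zip2, no member differed from fed N2 by more than 0.24 on the log2 scale, and none had an unadjusted p under 0.05 in edgeR or a call in DESeq2. The SEs ran from 0.51 to 0.69, larger than any of these differences. Of all genes 1.13% were called.

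**Figure D5:**
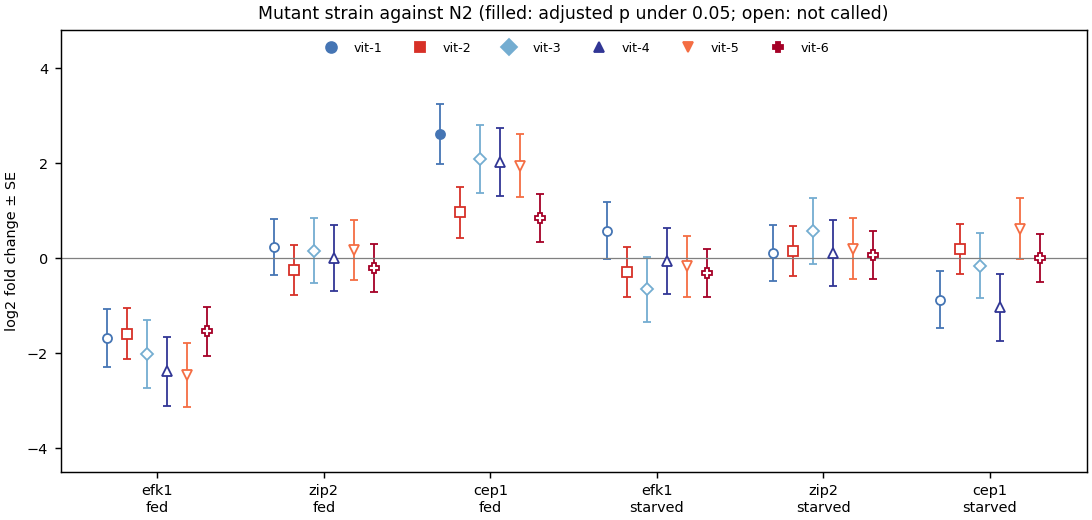
Log2 fold change of each mutant strain against N2 (vertical axis, bars are SE) for the 6 vitellogenins, in fed animals on the left and starved animals on the right. The filled symbol, vit-1 in fed cep1 at 2.62, was called and the open ones were not. All 6 members lie under 0 in fed efk1 and above 0 in fed cep1, and within -1.04 to 0.62 in the starved groups.

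In starved animals, log2 differences from starved N2 ran from -0.66 to 0.58 in efk1, 0.07 to 0.57 in zip2 and -1.04 to 0.62 in cep1. None was called by edgeR over all groups or by DESeq2 and none had an unadjusted p under 0.05, beside 1.93%, 1.3% and 7.71% of all genes called. For starved efk1 and zip2 against N2, libraries of the same replicate number deviated together over all genes. With the replicate number as a block, in a fit of the groups compared, 2 members were called in starved efk1: vit-1 was higher, at 0.62 on the log2 scale (edgeR adjusted p = 0.0396) and vit-3 lower, at -0.79 (edgeR adjusted p = 0.00379). This fit called 29.1% of all genes, so 2 of 6 was a share near the background. The block fitted in all libraries called neither gene (edgeR adjusted p = 0.663 and 0.648). That fit gives each replicate number the same shift in every group, so it cannot follow a pairing limited to some groups. None was called in starved zip2. The vitellogenins showed the shared deviation themselves: in starved N2, efk1 and zip2 alike, replicate 2 had the highest vit-2, vit-5 and vit-6 and replicate 3 the highest vit-1 and vit-4.

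The change with starvation was compared between strains through the interaction. In efk1 the starvation change exceeded that of N2 by 2.26 ± 0.85 for vit-1, 2.32 ± 0.99 for vit-4 and 2.30 ± 0.92 for vit-5 on the log2 scale, each with an unadjusted p under 0.05 but none called (edgeR adjusted p from 0.606 to 0.769), beside 0.246% of all genes. The change in cep1 minus that in N2 was -3.50 ± 0.87 for vit-1 (edgeR adjusted p = 0.201), -2.24 ± 0.99 for vit-3 and -3.06 ± 1.00 for vit-4, the 3 members with an unadjusted p under 0.05. edgeR called 0% of all genes in that comparison, and DESeq2 called vit-1 (adjusted p = 0.0125) beside 0.403%. For zip2 the 6 interaction values ran from -0.13 to 0.41, with none called by either tool (0% of all genes by edgeR) and none at an unadjusted p under 0.05. No starvation change of a member in a mutant was thus shown by edgeR to differ from that in N2.

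Ordered by mean CPM, vit-2 and vit-5 were highest in starved cep1, vit-6 in starved zip2, and the 4 starved groups held the first 4 places for all 3. vit-1 was highest in fed cep1, then fed zip2 and fed N2, and lowest in starved cep1. The fed cep1, N2 and zip2 groups also led for vit-3 and vit-4. Gaps without overlap separated fed zip2 from starved zip2 for vit-4 and fed N2 from fed efk1 for vit-5, and every other pair of neighbours overlapped.

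Of 14 genes known to act on vitellogenin transcription, 8 were higher and 2 lower in starved animals over the 4 strains, a share near the 63.5% of all genes called there, with a median log2 fold change of 0.28 against 0.03 over all genes. The homeodomain activators unc-62 and ceh-60 (-0.11 ± 0.10 and -0.34 ± 0.16) and the intestinal GATA factor elt-2 (-0.13 ± 0.11) were not called. pqm-1, a zinc finger transcription factor, rose by 0.63 ± 0.10 (edgeR adjusted p = 1.09e-05), and rict-1, the Rictor subunit of TOR complex 2, by 0.81 ± 0.11 (2.11e-06). lin-29, the heterochronic factor of the larva-to-adult switch, fell by 1.19 ± 0.17 (edgeR adjusted p = 5.67e-06), from a mean of 10.8 to 4.93 CPM in N2.

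Of 10 genes of yolk assembly and uptake, 3 were higher and 2 lower in the same comparison, a share under that of all genes. dsc-4, the large subunit of the microsomal triglyceride transfer protein that loads lipid onto such particles, fell from 178 to 53.1 CPM in N2 and from 232 to 83.0 CPM in efk1, by -1.68 ± 0.10 over the 4 strains (edgeR adjusted p = 6.20e-12). The yolk receptor gene rme-2 rose by 1.13 ± 0.23 (edgeR adjusted p = 0.000278), from a mean of 253 to 511 CPM in N2 and from 145 to 372 CPM in efk1. rab-7, a small GTPase of late endosomes, rose by 0.75 ± 0.11 (edgeR adjusted p = 9.11e-06).

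Markers of the tissues that make and receive yolk, and of age, were read beside the vitellogenins in the mean over the 4 strains, where 63.5% of all genes were called. Of 9 intestinal genes, 4 were lower and 1 higher, a share under that of all genes. act-5, the actin of intestinal microvilli, fell from 2106 to 144 CPM in N2 (-3.20 ± 0.17 over the strains, edgeR adjusted p = 3.44e-12). The peptide transporter pept-1 fell by 1.44 ± 0.21 and the filament organizer ifo-1 by 0.73 ± 0.16. The summed intestinal level was 9791 to 12631 CPM in fed and 4932 to 7305 CPM in starved N2, while in the other strains the fed and starved ranges overlapped (9771 to 11970 and 6979 to 12365 CPM in efk1, 6888 to 11099 and 5123 to 12355 CPM in zip2, 8621 to 11006 and 4917 to 11156 CPM in cep1).

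All 12 oocyte genes were higher in the mean over the 4 strains (median 1.14), rme-2 among them, with perm-4 and perm-2 of the eggshell permeability barrier at 1.49 ± 0.18 and 1.58 ± 0.21 and the oocyte surface gene egg-2 at 1.19 ± 0.17. Within strains 8 were called higher in N2, 11 in efk1, 12 in zip2 and 1 in cep1, where the median was 0.67. Of all genes 15.9%, 13.7%, 17.6% and 12.3% were called higher in these strains, in that order. Their summed level was 3222 to 3691 CPM in fed and 6204 to 10469 CPM in starved N2, without overlap as in efk1 and zip2, but overlapped in cep1 (2459 to 7780 CPM fed, 5480 to 11928 CPM starved). In the mean over the 4 strains 32.7% of all genes were called higher and 30.8% lower. Of 10 sperm genes, 5 were lower there, among them fer-1 (-0.87 ± 0.15), spe-9 (-0.78 ± 0.14) and spe-41 (-0.62 ± 0.13). Of 8 cuticle and molting genes, 6 were lower, including mlt-10 (-3.13 ± 0.33), bli-1 (-3.37 ± 0.41) and noah-2 (-2.48 ± 0.30), whereas col-19 was higher (1.09 ± 0.19). The 1 embryo gene that passed the filter, pes-1, was higher by 2.03 ± 0.29, from 0.298 to 1.35 CPM in N2. It was near the limit of detection and may have passed the filter only through starved libraries, which would favour a rise. Of 3 male genes tested try-5 was higher (1.21 ± 0.19), ram-5 lower (-1.98 ± 0.32) and pkd-2 not called (-0.25 ± 0.33). The part of these tissue and age markers in the vitellogenin changes was not tested.

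The genes most like the mean log2 level of the 6 vitellogenins over the 24 libraries, among 13240 compared, were col-143, C08F11.12, col-101, col-8, F54F7.2, ttr-42, Y45F10C.2, W09C5.7, clec-97 and col-179, with Pearson's r from 0.81 down to 0.73. Of these, 4 are collagen genes. That mean averages a pair of opposed patterns. Against the mean of vit-2, vit-5 and vit-6 alone, a target chosen after the values were seen, r was higher. It was 0.97 for tbh-1, the tyramine beta-hydroxylase of octopamine synthesis, 0.97 for C39D10.7 and 0.97 for Y62H9A.5. Next came ule-1 and ZK813.3, each at 0.96, and inx-8, an innexin, at 0.95. Against vit-1, vit-3 and vit-4 the closest gene, Y47G6A.33, reached 0.83. All libraries share groups and scaling, so these values only describe likeness.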

How the data were processed

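Strand-specific mRNA libraries were sequenced as 75-base paired ends, per the labels' protocols. The authors deposited a table of estimated counts per gene. The submitters' processing notes name Trimmomatic 0.36, Salmon 0.9.1, edgeR and build WBcel235, and the annotation and the step from transcripts to genes are not given in the sources used here. No per-sample column was left unused (0).

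After rounding to whole numbers, 1 mean per group was fitted to the 24 libraries (edgeR 4.0.16, R 4.3.3). The filter (minimum count 10, minimum total 15) kept 15871 genes. TMM factors scaled the libraries, and robust quasi-likelihood fits had 16 residual degrees of freedom and a common biological coefficient of variation of 29.0%. p-values of 14 comparisons were adjusted by Benjamini-Hochberg over all genes tested, and a gene was called at an adjusted p under 0.05. The SE is the absolute log2 fold change over the square root of F. Steps were tested on simulated data. Alternatives were DESeq2 1.42.0, RLE factors, no filter, scaling without the vitellogenins, the compared groups alone, the replicate block and each library left out.

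The members and gene lists were chosen with earlier results of these data known. Named were the 6 genes, 8 set list genes, the 3 genes of each list with the smallest adjusted p over the strains, and the 10 genes with the highest Pearson correlation of log2 CPM (prior count 2, mean log2 CPM of at least 0). chs-1 and col-7, and the genes beside a triplet mean, were named after their values were seen. Correlations between members used log2(CPM + 1). Replicate numbers were taken to pair samples in starved efk1 against N2 (correlations of deviations over genes 0.54, 0.75 and 0.39) and starved zip2 against N2 (0.54, 0.69 and 0.65), where each exceeded 0.1. This was a finding from the data and not from the labels. The pairing entered only the fits with the replicate block, and the main fit with its differences and SEs did not use it. Replicates differed by more than sampling noise (chi-square per gene at least 10.0). Reads carried no molecular identifiers.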

Additional observations from a re-analysis of the deposited data

How the results depend on the processing

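RLE factors, and scaling without the vitellogenins, changed none of the 14 counts of called members, no call of a member and, outside 5 comparisons treated last, no direction. Without the expression filter the same held, except that vit-4 in N2 was not called. The count moved by more than 1.5 times in fed efk1 against N2 (0, to 2 with DESeq2, 5 in the groups alone), in fed cep1 against N2 (1, to 4 with DESeq2, 0 in the groups alone) and in the cep1 interaction (0, to 1 with DESeq2). DESeq2 called 2.06%, 10.5% and 0.403% of all genes in these comparisons, in that order. In the groups alone edgeR called 2.66% for fed efk1 and 1.06% for fed cep1. With single libraries left out, the count of members ranged from 0 to 5 for starvation in N2 and from 2 to 4 in zip2. It ranged from 0 to 1 in fed efk1 against N2 and from 0 to 4 in fed cep1 against N2. The share of all genes called in these fits ranged from 19% to 30.4%, 20% to 36%, 0.352% to 1.5% and 1.27% to 13.2%, in that order. In the other comparisons the count stayed the same or, for starvation in cep1, reached 4, where 30.1% and 32.4% of all genes were called. The causes were not tested.

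With the replicate block and only the groups compared, 5 members were called in fed efk1 against N2. There were 0 in fed cep1 and 2 in starved efk1 against N2, and starvation called 6 in N2 and 5 in zip2. The same fits called 2.52%, 0.58%, 29.1%, 26% and 22.8% of all genes, in that order. With the block in all libraries vit-4 was no longer called in N2 (4 members, beside 32.9% of all genes). The block changed no other call. Outside the starved comparisons of efk1 and zip2 with N2 the samples share only a number, since same-numbered libraries did not all correlate.

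The sign turned for vit-3 with starvation in efk1, at -0.0002 as reported, to 0.012 with the replicate block in all libraries and, with single libraries left out, over a range of -0.44 to 0.41. For vit-1 there, that range was -0.12 to 0.63. In 5 comparisons without any member at an unadjusted p under 0.05, 64 of 426 values under the alternatives changed sign, and 2 were called.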
